A study of Mus musculus with 24 samples.

Results

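The genes described here are 10 transcription factors that cells use to answer stimuli: the AP-1 subunits Jun, Junb, Jund, Fos, Fosl1 and Fosl2, the immediate early factors Egr1 and Myc, and the C/EBP factors Cebpb and Cebpd. They were taken by gene symbol, without regard to their values, from the 17696 genes measured by RNA-seq in MIN6 cells, an insulin-secreting mouse insulinoma line that serves as a β cell model. All 10 were found, each on 1 row. The study asked what changing miR-146a-5p, a microRNA that inflammatory cytokines induce, does to gene expression in these cells with and without cytokines. Its 24 libraries form 6 groups of 4.

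Scr cells carried a scrambled control sequence in a miRZip lentiviral vector, ZIP cells an inhibitor of miR-146a-5p in a miRZip vector, and OE cells a miR-146a-5p overexpression cassette in a shMIMIC vector. The groups Scr, ZIP and OE were left untreated, and Scr+Cy, ZIP+Cy and OE+Cy received IL-1β at 5 ng/ml together with IFNγ at 100 ng/ml and TNFα at 10 ng/ml for 24 h. All lines had passed through puromycin and were expanded from picked clones, and the fluorescent reporter of the OE vector differs from that of the miRZip vectors. Clone and microRNA manipulation therefore cannot be told apart in any difference between lines. In differences between OE and the other lines, vector cannot be told apart from them either. The labels do not say that replicates are separate cultures, so p values measure the spread between these libraries. The microRNA itself was not analysed here. By qRT-PCR without cytokines, the paper reports a raised level of it in OE cells and an unchanged level in ZIP cells, each compared with Scr.

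AP-1 is a dimer of basic leucine zipper proteins, either of Jun family members with one another or of a Jun with a Fos family member, and binds short DNA elements in the regulatory regions of its targets. MAP kinases such as JNK and ERK, which cytokines and growth signals switch on, raise the activity of AP-1 subunits and the transcription of their genes. Fos, Egr1 and Myc are immediate early genes, whose short-lived RNA appears soon after a stimulus without new protein synthesis. C/EBPβ and C/EBPδ are zipper proteins that switch on acute-phase and inflammatory genes. In β cells, inflammatory cytokines are known to engage NF-κB and JNK.

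The microRNA that the OE vector expresses and the ZIP vector is meant to inhibit is printed with its seed, bases 2 to 8, in capitals. The seed pairs with sites in 3′ UTRs. It is taken from RefSeq (GRCm38.p6, chr11:43374435-43374456, minus strand).
mmu-miR-146a-5p: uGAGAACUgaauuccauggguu
A match to this seed (AGTTCTC) was searched in the 3′ UTRs of transcripts of GENCODE M21, a mouse gene annotation. It was found in 1 of the 10 genes, Fosl2, at base 3260 of a 3′ UTR of 4653 bases, and in 11.4% of the 15320 genes of the table that had a 3′ UTR. The site is printed with the seed match in capitals.
Fosl2 site: gggccaccttAGTTCTCatagaaattg
A seed match is a description of the sequence and not a shown target site.

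RefSeq promoters, from 250 bases before to 50 bases after the transcription start, were matched for 6 genes: Jun, Junb, Jund, Fos, Fosl2 and Cebpb. Those of Jun and Junb are printed because both genes rose with cytokines in every line, and that of Fos because it did not. They lie at chr4:95052173-95052472 (minus strand), chr8:84978699-84978998 (minus strand) and chr12:85473640-85473939 (plus strand) of GRCm38.p6, and matched motifs are in capitals.
Jun: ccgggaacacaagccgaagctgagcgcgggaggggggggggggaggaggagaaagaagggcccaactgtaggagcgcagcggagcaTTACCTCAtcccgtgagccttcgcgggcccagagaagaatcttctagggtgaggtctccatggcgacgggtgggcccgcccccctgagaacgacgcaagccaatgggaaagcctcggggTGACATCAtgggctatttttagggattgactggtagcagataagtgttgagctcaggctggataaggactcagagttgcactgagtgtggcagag
Junb: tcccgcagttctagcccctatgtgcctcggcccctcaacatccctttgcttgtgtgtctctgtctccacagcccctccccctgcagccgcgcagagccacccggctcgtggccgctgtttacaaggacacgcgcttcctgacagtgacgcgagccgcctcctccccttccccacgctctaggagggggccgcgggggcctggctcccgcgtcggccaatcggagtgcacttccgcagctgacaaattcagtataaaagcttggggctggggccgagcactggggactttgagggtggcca
Fos: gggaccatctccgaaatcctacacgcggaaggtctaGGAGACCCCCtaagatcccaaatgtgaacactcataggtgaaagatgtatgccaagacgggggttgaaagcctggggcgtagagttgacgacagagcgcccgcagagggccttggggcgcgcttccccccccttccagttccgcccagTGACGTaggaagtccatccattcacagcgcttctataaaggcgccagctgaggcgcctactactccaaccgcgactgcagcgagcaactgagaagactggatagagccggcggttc
In Jun, the capitals mark TTACCTCA from position -164 to -157 and TGACATCA from -45 to -38, counted with the start as 0. These are the variant AP-1 elements for which the Jun promoter is known. They occur in 0.889% and 3.62% of 32851 promoters of the same length. In Fos, the capitals mark a kappaB motif from -214 to -205 and TGACGT, the core of a cAMP response element, from -66 to -61, found in 8.46% and 7.51% of promoters. TGACGT is also contained in TGACGTCA. No motif searched was in the windows of Junb, Jund or Cebpb, and that of Fosl2 held a kappaB motif. On both strands, the search covered TGACTCA (the consensus AP-1 element, in 5.2% of promoters), TGACGTCA (1.79%), the STAT motif TTCNNNGAA (8.3%), kappaB, the CArG box of serum response factor (1.63%), the C/EBP motif TTGCGCAA (0.183%), TGACATCA, TTACCTCA and TGACGT. The last 3 were added after the sequences were seen.

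Between 26657792 and 37168232 reads per library were assigned to genes, with a median of 30701023. All 9 β cell markers on a fixed list (among them Ins1, Ins2, Pdx1 and Mafa) had a mean of at least 1 CPM (counts scaled to the TMM-adjusted library total) in every group, summing to between 23020 and 50870 CPM per library. A list of exocrine and duct markers, 5 of 7 of which were in the table, summed to between 346 and 493 CPM in OE and OE+Cy libraries and to at most 11.0 CPM elsewhere. That sum was mostly the duct keratin Krt7 (409 CPM in OE against 4.38 in Scr), beside Krt19 (15.9 CPM in OE, 0 in Scr). Sox9, on the same list, did not rise with them. It was at 0 CPM in OE and OE+Cy and had its highest group mean, 0.277 CPM, in Scr+Cy. The acinar enzymes Cela1 and Cel stayed under 0.1 CPM in every group. Leukocyte markers, 4 of 6 in the table, summed to at most 4.54 CPM, mostly Cd68, with the pan-leukocyte gene Ptprc at 0.131 CPM or less. Endothelial markers (2 of 4 in the table) summed to at most 4.62 CPM, and the other islet hormones were led by Gcg, at 288 CPM in Scr and 16.4 CPM in OE+Cy. Of the hormones listed beside Gcg, Ppy and Sst moved the opposite way. Untreated OE cells held their highest group means, 8.89 CPM for Ppy and 1.34 CPM for Sst. The OE+Cy means of these genes were 4.11 and 0.294 CPM, and their Scr means were 0 and 0.0828 CPM. Ghrl stayed under 0.1 CPM throughout. Fibroblast markers (6 of 6) reached 58.7 CPM in 1 Scr+Cy library and 54.0 CPM in 1 ZIP library, and at most 4.11 CPM in OE and OE+Cy libraries. The part of these markers in the differences between lines was not tested, and in bulk RNA fewer cells of a type and less RNA per cell cannot be told apart.

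Gene levels can be compared with one another only per length, as mean CPM per kilobase of transcript. In Scr cells Jund, a broadly expressed AP-1 subunit, stood highest at 41.8 ± 8.58 (SD, n = 4), or 72.1 if its shorter transcript is the one expressed. Jun followed at 12.1 ± 1.58. Fosl2 (8.84 ± 1.07), Cebpb (8.78 ± 1.49) and Junb (7.98 ± 1.53) came next and did not differ beyond their spread. Fos (3.50), Cebpd (2.79), Egr1 (2.50) and Myc (2.31) followed, each overlapping the next. The place of Cebpd depends on the length used, since the GENCODE transcript gives 1.68, below Myc. Fosl1, a Fos relative known from invasive and growth-stimulated cells, was close to 0. In OE+Cy cells the order was Jund (76.0 ± 2.80), Jun (57.3 ± 2.29) and Junb (53.5 ± 7.34), whose libraries overlapped for Jun and Junb only. Cebpb (13.5), Egr1 (12.6) and Myc (9.75) came next with overlapping libraries, and the range of Myc, which began at 5.41, also overlapped those of Fos, Cebpd and Fosl2. These orders are descriptions without a test.

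**Figure D1:**
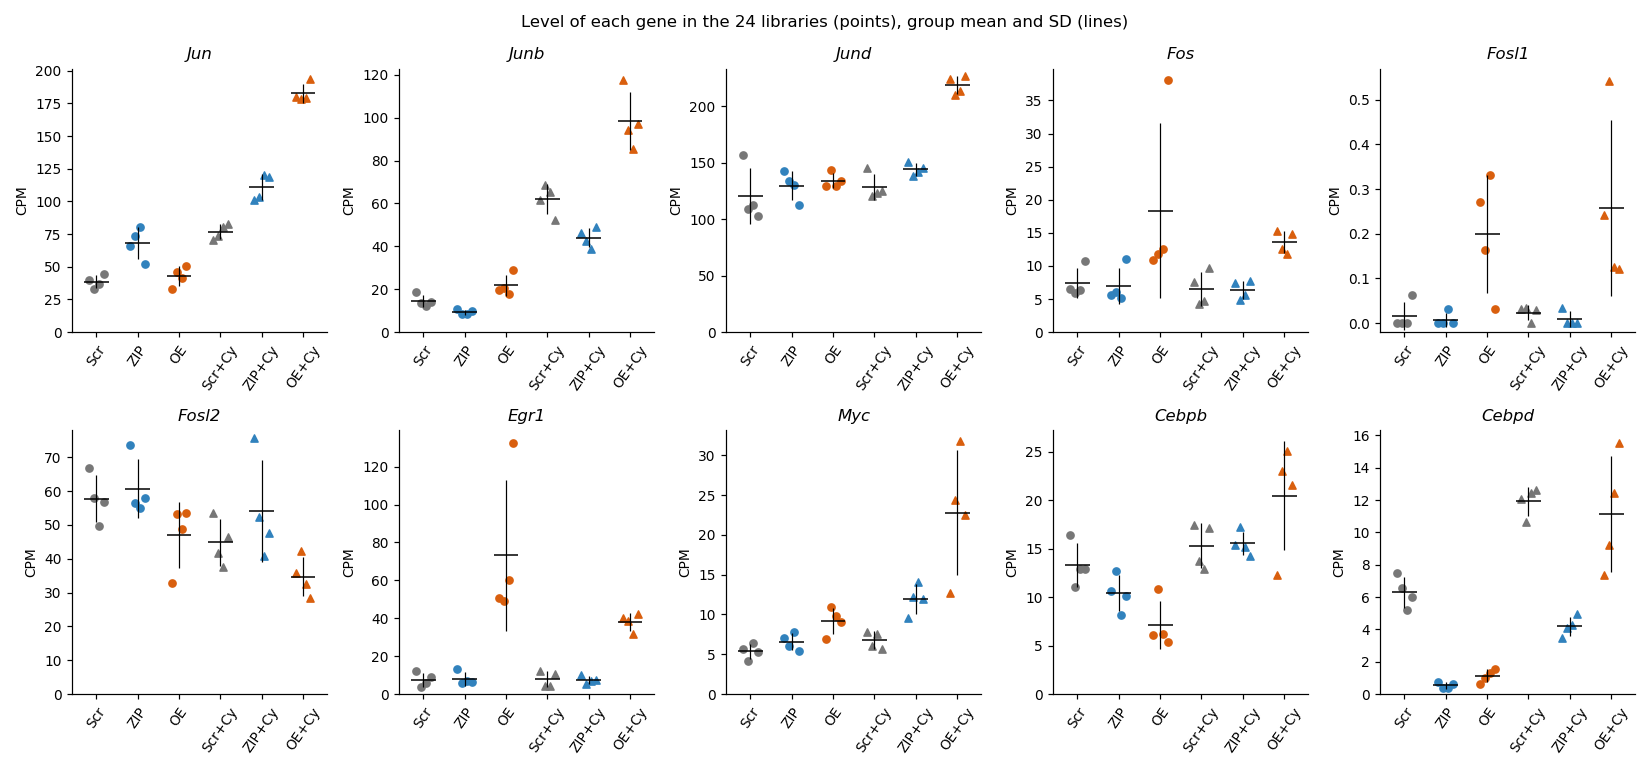
Level of each of the 10 genes in CPM (vertical axes, 1 per gene, linear) in the 6 groups; each point is 1 library (circles without, triangles with cytokines), horizontal lines are means of 4 libraries and vertical lines SDs. Jun, Junb, Jund and Myc had their highest group mean in OE+Cy, and Cebpd stood at 0.527 CPM in ZIP against 6.30 CPM in Scr.

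Here a gene counts as called where edgeR's quasi-likelihood test gave an unadjusted p under 0.05 with a change of 1.5-fold or more. Of the 10 genes, 3 were called between ZIP and Scr, where 14.9% of all tested genes were called. Jun was higher, and Junb and Cebpd were lower. Between OE and Scr, 6 were called beside 25.7% of all genes, with Fos, Fosl1, Egr1 and Myc higher and Cebpb and Cebpd lower. The median log2 fold change of the 10 was -0.01 in ZIP and 0.36 in OE, where that of all genes was 0 in both.

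Cytokines raised 3 of the 10 in Scr cells (Jun, Junb and Cebpd) beside 10.6% of all genes called. In ZIP cells they raised 4 (Jun, Junb, Myc and Cebpd) beside 12.5% of all genes. In OE cells 6 rose (Jun, Junb, Jund, Myc, Cebpb and Cebpd) and Egr1 fell, so that 7 were called beside 21% of all genes. The medians of the 10 log2 responses were 0.26, 0.37 and 1.01, and those of all genes were 0.002, -0.007 and 0.024. Each gene called in 1 of the 9 comparisons of 2 groups also had an adjusted p under 0.05 there.

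The lines were also compared under cytokines. In ZIP+Cy, 2 of the 10 differed from Scr+Cy, Myc being higher and Cebpd lower, beside 15.8% of all genes. In OE+Cy, 7 of the 10 were higher than in Scr+Cy (Jun, Junb, Jund, Fos, Fosl1, Egr1 and Myc) and none was called lower, beside 28.5% of all genes. Against untreated Scr cells, from which they differ in line and treatment at once, 4 of the 10 differed in ZIP+Cy (21.7% of all genes) and all 10 in OE+Cy (34.2% of all genes), 9 higher and Fosl2 lower. These comparisons reuse the same Scr and Scr+Cy libraries and are not independent of each other.

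Whether a line answered cytokines differently from Scr was tested as an interaction, at an adjusted p under 0.05. For ZIP, 1 of the 10 passed, Cebpd, among only 10 genes of the whole table (0.0565%). That total was 41 with DESeq2 and 45 with replicate numbers as a block. For OE, 5 of the 10 passed (Jun, Jund, Myc, Cebpb and Cebpd), all with the larger log2 response in OE, beside 20% of all genes.

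Jun encodes c-Jun, the subunit that JNK phosphorylates. Its level was 39.7, 32.8, 36.5 and 44.7 CPM in the Scr libraries and 70.5, 73.4, 80.5 and 82.4 CPM in Scr+Cy. In ZIP cells it was 66.2, 73.7, 80.4 and 52.2 CPM without and 101, 104, 120 and 118 CPM with cytokines. In OE cells it was 33.3, 45.7, 41.3 and 50.9 CPM without and 180, 178, 179 and 194 CPM with cytokines. All 4 ZIP libraries lay above all Scr libraries, untreated OE and Scr overlapped, and the 4 OE+Cy libraries lay above every other library of the study.

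Untreated ZIP cells had 1.77-fold more Jun RNA than Scr cells (log2 fold change 0.83, SE 0.120, adjusted p = 7.73e-06), and OE cells differed by 0.16 (SE 0.120, adjusted p = 0.299). Cytokines raised Jun 2.00-fold in Scr (log2 1.00, SE 0.119), 1.63-fold in ZIP (0.70, SE 0.117) and 4.27-fold in OE (2.09, SE 0.121). The response of OE exceeded that of Scr by 1.10 on the log2 scale (SE 0.167, adjusted p = 7.68e-05). The ZIP response differed from that of Scr by -0.30 (SE 0.167, adjusted p = 0.84). Under cytokines Jun in OE+Cy was 2.38-fold above its level in Scr+Cy (adjusted p = 2.96e-09 from edgeR). In ZIP+Cy it was 1.44-fold higher, below the fold limit, and reached it without ZIP+Cy replicate 1 (log2 0.59).

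Junb encodes a Jun family member that restrains c-Jun activity in many cells. It was at 18.8, 13.7, 12.3 and 14.0 CPM in Scr, rising to 61.7, 68.6, 65.2 and 52.3 CPM in Scr+Cy. The ZIP libraries held 10.7, 8.28, 8.24 and 9.71 CPM and the ZIP+Cy libraries 46.3, 42.3, 38.7 and 48.8 CPM. The OE libraries held 19.5, 20.7, 17.9 and 29.1 CPM and the OE+Cy libraries 117, 94.1, 85.4 and 97.0 CPM. In every line the cytokine-treated libraries were all above the untreated ones, and with cytokines the 3 lines did not overlap, ZIP+Cy being lowest and OE+Cy highest.

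Cytokines raised Junb 4.21-fold in Scr (log2 2.07, SE 0.143, adjusted p = 4.05e-11), 4.78-fold in ZIP (2.26, SE 0.150, adjusted p = 1.97e-11) and 4.53-fold in OE (2.18, SE 0.140, adjusted p = 6.07e-12). The differences of these responses from Scr were 0.18 (SE 0.203) for ZIP and 0.11 (SE 0.195) for OE, with adjusted p values of 0.937 and 0.774. Untreated ZIP cells had 1.60-fold less Junb RNA than Scr cells (log2 -0.68, SE 0.153, adjusted p = 0.00142). This fell under the fold limit without Scr replicate 1 (-0.53). Untreated OE cells were 1.48-fold above Scr, and passed the limit when Scr replicate 1 or any of OE replicates 1, 2 and 3 was left out (log2 0.59 to 0.71). Under cytokines OE+Cy stood 1.59-fold above Scr+Cy (log2 0.67, adjusted p = 0.000163), or 0.57 and under the limit without OE+Cy replicate 1.

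The genes around Junb on chromosome 8 moved with the line. Of the 75 genes with a mean of at least 1 CPM within 5 Mb on either side, 1.33% had a positive log2 fold change in ZIP and 4.00% in OE, with medians of -0.61 and -0.59. Under cytokines these medians were -0.61 and -0.57, while the cytokine responses of the same neighbours had medians between -0.005 and 0.017. Junb in ZIP (-0.68) was thus close to its neighbours, and Junb in OE (0.56) lay on the other side of 0 from them. Neighbours of Jund, on the same chromosome, had medians of -0.05 and -0.06, those of Cebpd -0.17 in ZIP and 0.16 in OE, and those of Egr1 -0.28 in OE. The part of the region in the Junb difference was not tested.

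**Figure D2:**
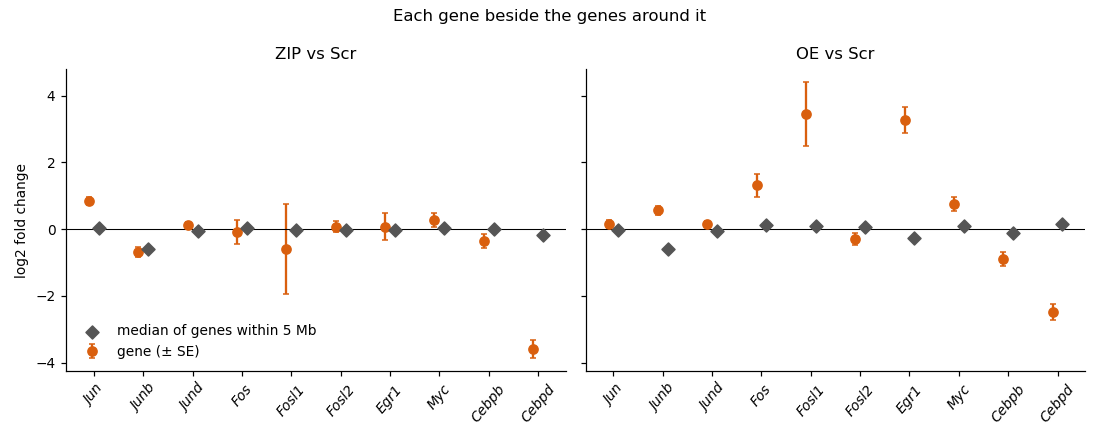
Log2 fold change of each of the 10 genes (circles, bars are SE of the fit) and median log2 fold change of the genes within 5 Mb on either side (diamonds, mean of at least 1 CPM), for ZIP against Scr on the left and OE against Scr on the right. The neighbours of Junb had medians of -0.61 and -0.59, while Cebpd and Egr1 stood apart from theirs.

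Jund encodes the Jun family member that is present in most resting cells. The Scr libraries held 157, 109, 112 and 103 CPM and the Scr+Cy libraries 146, 120, 123 and 125 CPM. The OE libraries held 130, 144, 129 and 134 CPM and the OE+Cy libraries 224, 210.3, 213 and 227 CPM. The 4 OE+Cy libraries lay above every other library, and untreated lines overlapped. ZIP libraries ranged from 113 to 143 CPM and ZIP+Cy libraries from 138 to 151 CPM.

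Jund rose 1.63-fold with cytokines in OE (log2 0.70, SE 0.095, adjusted p = 1.52e-06). Its log2 responses of 0.10 in Scr and 0.15 in ZIP, each with an SE of 0.095, were not called. The response in OE exceeded that in Scr by 0.61 (SE 0.134, adjusted p = 0.00226). OE+Cy was 1.70-fold above Scr+Cy (adjusted p = 3.09e-07).

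Fos encodes c-Fos, a short-lived partner of the Jun proteins. It was at 6.56, 5.89, 6.35 and 10.8 CPM in Scr, and at 5.56, 6.02, 5.21 and 11.0 CPM in ZIP. The OE libraries held 10.9, 11.8, 12.6 and 38.1 CPM and the OE+Cy libraries 15.3, 12.6, 11.9 and 14.8 CPM. Replicate 4 was the highest in each of these untreated groups. Scr+Cy libraries ranged from 4.27 to 9.67 CPM and ZIP+Cy libraries from 4.84 to 7.71 CPM, overlapping their untreated groups.

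Untreated OE cells had 2.48-fold more Fos RNA than Scr cells (log2 1.31, SE 0.339, adjusted p = 0.00231). Without OE replicate 4 the log2 difference was 0.68, with an adjusted p of 0.0364. OE+Cy was 2.07-fold above Scr+Cy (log2 1.05, SE 0.345, adjusted p = 0.0133). ZIP and Scr differed by -0.09 (SE 0.352), and the cytokine responses were -0.16 (SE 0.351), -0.12 (SE 0.358) and -0.42 (SE 0.328) in Scr, ZIP and OE, none of them called at 24 h.

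Fosl2 encodes Fra-2 and Fosl1 encodes Fra-1, Fos relatives without the strong activation domain of c-Fos. Fosl2 held 66.8, 57.9, 49.7 and 56.7 CPM in Scr and 35.7, 42.3, 32.5 and 28.5 CPM in OE+Cy. These groups did not overlap, and the difference of 1.66-fold (log2 -0.74, SE 0.171, adjusted p = 0.00068) was the only call on Fosl2 among the 11 comparisons. Group means ran from 60.8 ± 8.75 CPM in ZIP to 34.7 ± 5.85 CPM in OE+Cy, and the cytokine responses were -0.37 in Scr, -0.17 in ZIP and -0.44 in OE. OE, the line that overexpresses the microRNA whose seed match Fosl2 carries, differed from Scr by -0.29 (SE 0.168, adjusted p = 0.155), and ZIP by 0.07 (SE 0.168, adjusted p = 0.801).

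Fosl1 had few reads: 28 over the 4 OE libraries, 31 over OE+Cy, 4 over Scr+Cy, 2 over Scr and 1 over ZIP. The ratio of OE to Scr was 13.8 (95% interval 3.48 to 120) and that of OE+Cy to Scr+Cy 8.23 (2.91 to 32.1), both covering counting error only. Both were called (adjusted p = 0.00393 and 0.00428). Their fitted log2 differences of 3.45 and 3.21 were 5.68 without Scr replicate 4 and 2.58 without OE+Cy replicate 2. OE replicate 4, with 0.0328 CPM, overlapped Scr replicate 4, with 0.0619 CPM. A filter on low counts removed Fosl1 and kept the other 9 genes. The gene overlaps Ccdc85b on the other strand, and 83.3% of its estimated counts were not whole numbers, so its level is uncertain.

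Egr1 encodes a zinc finger factor that growth signals through ERK induce. It was at 12.0, 3.71, 5.72 and 8.92 CPM in Scr and at 50.8, 49.2, 60.5 and 133 CPM in OE. With cytokines, the Scr+Cy libraries held 12.3, 4.30, 4.46 and 10.8 CPM and the OE+Cy libraries 40.1, 38.4, 31.6 and 42.5 CPM. Every OE and OE+Cy library lay above every library of the other 4 groups. ZIP libraries ranged from 5.76 to 13.4 CPM and ZIP+Cy libraries from 5.08 to 10.2 CPM.

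Egr1 was 9.62-fold higher in OE than in Scr (log2 3.27, SE 0.380, adjusted p = 1.1e-07), and 4.75-fold higher in OE+Cy than in Scr+Cy (log2 2.25, SE 0.374, adjusted p = 1.91e-05). Without OE replicate 4 the former was 2.81. ZIP differed from Scr by 0.08 (SE 0.395). Within OE, Egr1 fell by 0.94 on the log2 scale with cytokines (SE 0.339, adjusted p = 0.0266), a call that was lost without OE replicate 4 (-0.49, unadjusted p = 0.139). The corresponding changes were 0.08 (SE 0.392) in Scr and -0.13 (SE 0.402) in ZIP, and the difference between OE and Scr did not pass (-1.02, SE 0.517, adjusted p = 0.182).

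**Figure D3:**
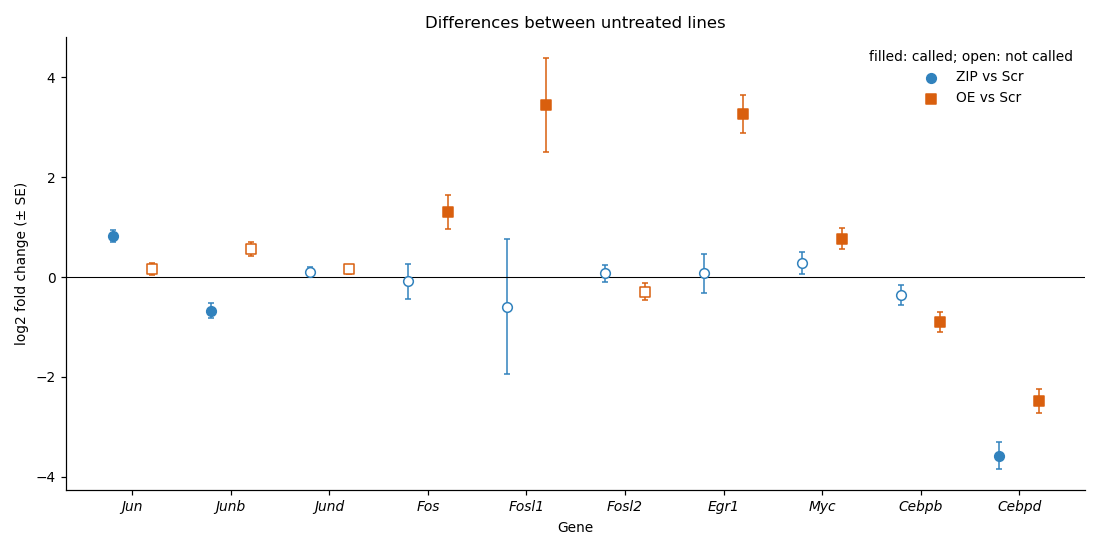
Log2 fold change of each of the 10 genes (horizontal axis) between untreated lines, ZIP against Scr (circles) and OE against Scr (squares), with bars of 1 SE of the fit. Filled symbols were called and open ones were not. Egr1 rose by 3.27 in OE, and Cebpd fell in both lines, by 3.58 in ZIP and 2.49 in OE.

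Fos, Egr1 and Myc varied with the replicate number that the labels share across groups. Fos in replicate 4 was above its own group mean in 6 of 6 groups, on average by 0.61 on the log2 scale, and replicates 2 and 3 were above it in none. Egr1 was above its group mean in 5 of 6 groups in replicate 1 (mean 0.43) and in replicate 4 (mean 0.31). Myc was above it in replicate 3 in 6 of 6 groups (mean 0.27). Other members also varied with the number. In 5 of 6 groups Junb (mean 0.13), Jund (0.13) and Fosl2 (0.14) were above their group mean in replicate 1. The same held for Jun (0.07) and Cebpd (0.255) in replicate 4. What the numbers stand for is not given in the sources used here. With the replicate number as a block, each of the 10 genes kept the calls described above.

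**Figure D4:**
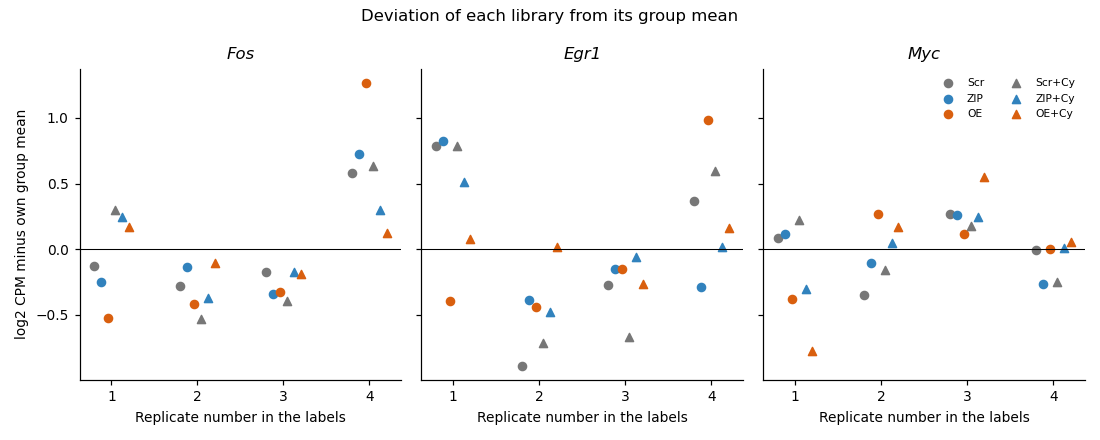
Deviation of each library from its own group mean (vertical axis, log2 CPM) for Fos, Egr1 and Myc by replicate number (horizontal axis); each point is 1 library, coloured by line, with triangles for cytokines. All 6 libraries numbered 4 lie above 0 for Fos, and all 6 numbered 3 for Myc.

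Myc encodes c-Myc, a basic helix-loop-helix factor that drives growth and metabolism. It was at 5.67, 4.17, 6.44 and 5.33 CPM in Scr and at 7.82, 5.99, 7.58 and 5.62 CPM in Scr+Cy. The ZIP libraries held 7.03, 6.02, 7.78 and 5.38 CPM and the ZIP+Cy libraries 9.57, 12.2, 14.0 and 11.9 CPM. The OE libraries held 6.92, 10.9, 9.79 and 9.04 CPM and the OE+Cy libraries 12.7, 24.3, 31.7 and 22.5 CPM. With cytokines, all ZIP+Cy and OE+Cy libraries lay above all Scr+Cy libraries, while Scr and Scr+Cy overlapped.

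Cytokines raised Myc 1.82-fold in ZIP (log2 0.86, SE 0.209, adjusted p = 0.00306) and 2.49-fold in OE (1.31, SE 0.199, adjusted p = 7.63e-06), and the response of 0.32 in Scr (SE 0.214) was not called. The response of OE exceeded that of Scr by 0.99 (SE 0.292, adjusted p = 0.0178). Without OE+Cy replicate 3 this was 0.77, with an adjusted p of 0.0585. That of ZIP exceeded it by 0.54 (SE 0.299) without passing (adjusted p = 0.834). Untreated, Myc was 1.70-fold higher in OE than in Scr (adjusted p = 0.00381). Under cytokines it was 1.77-fold higher in ZIP+Cy and 3.38-fold higher in OE+Cy than in Scr+Cy (adjusted p = 0.00405 and 1.11e-07).

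Cebpd encodes C/EBPδ, which interleukins induce through STAT3 in many tissues. It was at 7.47, 6.56, 5.19 and 5.98 CPM in Scr and at 12.0, 10.6, 12.4 and 12.7 CPM in Scr+Cy. The ZIP libraries held 0.768, 0.365, 0.372 and 0.605 CPM and the ZIP+Cy libraries 3.49, 4.11, 4.25 and 4.93 CPM. The OE libraries held 0.635, 1.01, 1.32 and 1.54 CPM and the OE+Cy libraries 7.37, 9.21, 12.4 and 15.6 CPM. Untreated ZIP and OE libraries all lay below all Scr libraries, and every ZIP+Cy library stayed below every untreated Scr library, whereas OE+Cy and Scr+Cy overlapped.

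Without cytokines Cebpd was 12.0-fold lower in ZIP than in Scr (log2 -3.58, SE 0.270, adjusted p = 2.56e-10) and 5.60-fold lower in OE (-2.49, SE 0.236, adjusted p = 3.64e-09). Cytokines raised it 1.89-fold in Scr (0.92, SE 0.199, adjusted p = 0.00161), 7.97-fold in ZIP (2.99, SE 0.277, adjusted p = 8.3e-09) and 9.91-fold in OE (3.31, SE 0.235, adjusted p = 3.64e-11). The response exceeded that of Scr by 2.07 in ZIP (SE 0.348, adjusted p = 0.0124) and by 2.39 in OE (SE 0.306, adjusted p = 1.25e-05). Without ZIP replicate 2, the value for ZIP was 1.96 with an adjusted p of 0.0509. Under cytokines Cebpd was 2.84-fold lower in ZIP+Cy than in Scr+Cy (log2 -1.51, adjusted p = 3.83e-06), and OE+Cy differed from Scr+Cy by -0.10 (SE 0.195, adjusted p = 0.701).

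Cebpd overlaps the gene Spidr, and none of its estimated counts was a whole number, so its level is uncertain. Spidr, a gene with a role in DNA repair, was 2.73-fold lower in ZIP than in Scr (log2 -1.45, SE 0.156, adjusted p = 9.42e-08). In OE it differed from Scr by -0.26 (SE 0.148), and its cytokine responses were -0.005 in Scr, 0.16 in ZIP and 0.03 in OE. The share of Spidr reads in the Cebpd values was not tested.

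Cebpb encodes C/EBPβ, which works with NF-κB on inflammatory genes. The Scr libraries held 16.5, 11.0, 12.9 and 12.9 CPM and the Scr+Cy libraries 17.4, 13.7, 12.9 and 17.2 CPM. The OE libraries held 6.11, 10.8, 6.18 and 5.40 CPM and the OE+Cy libraries 12.3, 23.0, 25.0 and 21.6 CPM. OE libraries lay below all Scr libraries, and all OE+Cy libraries lay above all OE libraries. ZIP libraries ranged from 8.18 to 12.7 CPM and ZIP+Cy libraries from 14.3 to 17.2 CPM, without overlap.

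Untreated OE cells had 1.86-fold less Cebpb RNA than Scr cells (log2 -0.90, SE 0.205, adjusted p = 0.000751). Cytokines raised it 2.86-fold in OE (1.52, SE 0.204, adjusted p = 1.43e-06), and this response exceeded that of Scr (0.20, SE 0.197) by 1.32 (SE 0.283, adjusted p = 0.00176). In ZIP the response of 1.49-fold was just under the fold limit (0.58, SE 0.202, adjusted p = 0.0362). It passed the limit in the fit of ZIP and ZIP+Cy alone and without ZIP replicate 1 or 2 or ZIP+Cy replicate 3 or 4 (0.59 to 0.69). OE+Cy was 1.54-fold above untreated Scr, with overlapping libraries, and under the limit without Scr replicate 2, OE+Cy replicate 2 or OE+Cy replicate 3 (0.52 to 0.58). Against Scr+Cy it differed by 0.42 (SE 0.195), and passed without OE+Cy replicate 1 (0.60).

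**Figure D5:**
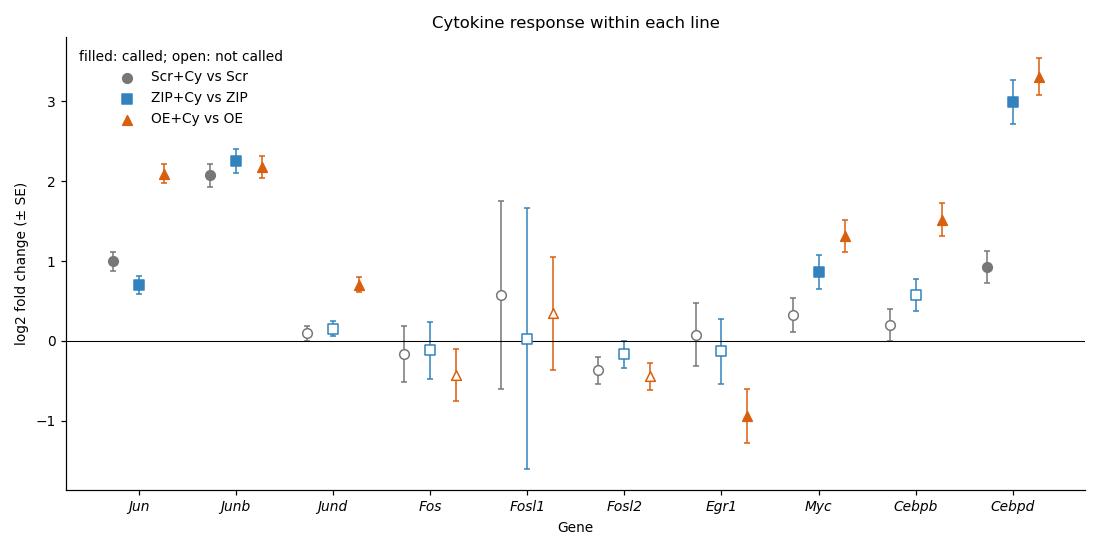
Log2 cytokine response of each of the 10 genes (horizontal axis) within Scr (circles), ZIP (squares) and OE (triangles), with bars of 1 SE of the fit; filled symbols were called. Junb rose by 2.07 to 2.26 in all 3 lines, Jun rose by 2.09 and Cebpb by 1.52 in OE, and Cebpd rose by 0.92 in Scr against 2.99 in ZIP and 3.31 in OE.

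Some of these genes overlap a partner on the other strand or a neighbour in the annotation: Jun with Junos, Jund with Gm11175, Junb with Prdx2 and Cebpb with Tmem189, besides Fosl1 and Cebpd. Whether counting used strand is not given in the sources used here, so reads from the overlaps may belong to either gene, and how many there are was not tested. All counts of Jun, Junb, Jund, Fos, Fosl2 and Egr1 were whole numbers, while 70.8% of those of Cebpb and 29.2% of those of Myc were not.

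Over the 24 libraries, which share groups and replicate numbers, the members most alike were Fos and Egr1 (Pearson r = 0.861 of log2 CPM), Jund and Myc (0.835) and Jun and Myc (0.788). Fosl2 was negatively correlated with each of the other 9 genes. Outside the 10, among 12661 genes with a mean of at least 1 CPM, the pattern of Junb was most like those of Prkd2 (0.979) and B3gnt3 (0.976), and that of Jun like those of Nrp2 (0.968) and Cd44 (0.949). For Egr1 they were Gm4791 (0.962) and Gpr19 (0.942), for Myc Pard3b (0.947) and Sqstm1 (0.940), and for Cebpd Rcl1 (0.941) and Gsdmd (0.926). For Cebpb they were Gabarapl1 (0.935) and L1cam (0.916), for Jund Hgs (0.918) and Zbtb21 (0.912), and for Fosl1 Dgkd (0.886) and Sik2 (0.876). Fos came closest to Thoc7 (0.874) and Taf1d (0.864), and Fosl2 to Sp8 (0.863) and Diras2 (0.862). These correlations describe likeness over groups and carry no test.

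The lists of related genes that follow are read beside the share of all genes called, in either direction, which was 14.9% in ZIP and 25.7% in OE against Scr and, for cytokines, 10.6% in Scr, 12.5% in ZIP and 21% in OE. The other AP-1 partners of the zipper family were read from a list of 11, all measured. Between ZIP and Scr 1 rose and 2 fell, and between OE and Scr 3 rose and 2 fell. Cytokines raised 5 in Scr (median log2 0.84) and 4 in ZIP (0.36), and raised 6 and lowered 1 in OE (0.97). Batf2, an interferon-induced AP-1 partner, went from 0.109 to 15.4 CPM in Scr, from 0.160 to 15.8 CPM in ZIP and from 0.0865 to 141 CPM in OE. Its interaction for OE, against untreated levels near 0, did not pass (3.41, SE 1.63, adjusted p = 0.152). Atf3, a stress-induced repressor, rose 3.53 on the log2 scale in OE, from 4.59 to 53.3 CPM, and by 1.68 in Scr, from 2.05 to 6.59 CPM. The difference of 1.85 was called (SE 0.266, adjusted p = 4.09e-05), as were those of the small Maf protein Mafk (1.01, adjusted p = 3.58e-05) and of Jdp2, an AP-1 repressor (2.46, adjusted p = 1.26e-05). Without cytokines Jdp2 was lower in OE (1.05 CPM) than in Scr (5.72 CPM), and it was at 4.32 CPM in OE+Cy. Fosb, a Fos relative, rose in untreated OE (log2 1.46, adjusted p = 0.00161).

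Of 4 other C/EBP genes, none was called in either untreated line, none was called with cytokines in Scr or ZIP, and 3 rose with cytokines in OE. Ddit3, the stress factor CHOP, rose from 24.4 to 66.9 CPM (log2 1.46, adjusted p = 2.85e-05) and Cebpg, a broadly expressed partner, from 118 to 187 CPM (0.67, adjusted p = 1.5e-05). Both responses differed from Scr (1.35 and 0.65, adjusted p = 0.00722 and 0.00326). Cebpa, called as well, stayed at a mean of 0.155 CPM or less in every group of 4.

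Of 31 other immediate early genes, 30 were in the table, Ccn2 being the exception. In OE against Scr 13 rose and 4 fell (median log2 0.41), and in ZIP none rose and 4 fell (median -0.17). The kinase Plk2 (0.560 to 12.5 CPM), the activity-regulated factor Npas4 (1.85 to 7.76 CPM) and the ERK phosphatase Dusp6 (15.3 to 63.7 CPM) rose most in OE, and Plk3 fell from 162 to 76.9 CPM. In ZIP, Ier2 fell from 14.1 to 6.73 CPM, Klf4 from 11.0 to 6.27 CPM and Ier5 from 33.0 to 20.3 CPM. Cytokines raised 4 of the 30 in Scr and in ZIP and 7 in OE, and lowered none, 1 and 7. Ier3, an NF-κB target, and Gadd45b, a stress gene, were among those raised in every line, Ier3 by 1.66 in Scr, 2.38 in ZIP and 1.66 in OE. In OE with cytokines, Dusp6 fell by 1.87, and Nab2, a corepressor of Egr1 that Egr1 itself induces, fell by 1.08.

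Of 19 genes of MAP kinases and the factors they act on, 2 rose and 2 fell in OE, a smaller share than the 25.7% of all genes called there. The ERK gene Mapk3 fell in both lines, by 0.65 in ZIP and 1.55 in OE, and Mapk10, a JNK gene, by 0.86 in OE. Elk3, an ETS factor that ERK acts on, rose in both lines, to 40.6 CPM in ZIP and 84.5 CPM in OE, where Scr had 17.8 CPM. Cytokines raised Map2k6, a p38 kinase kinase, in all 3 lines, by 1.37 in Scr, 1.94 in ZIP and 0.76 in OE, and raised or lowered at most 2 other genes of the 19 in any line.

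Of 12 genes around Myc, 1 rose in ZIP, and 3 rose and 2 fell in OE. Mycl, a Myc relative, was at 0.0438 CPM in Scr, 1.11 CPM in OE and 10.4 CPM in OE+Cy, and Mxd3, a Max partner that opposes Myc, was lower in OE (11.1 CPM) than in Scr (24.2 CPM). Mlxipl, the glucose-responsive factor ChREBP, rose 1.54-fold in ZIP and 2.65-fold in OE. Cytokines changed none of the 12 in Scr, lowered 1 in ZIP (Mxi1, by 0.89) and raised 1 and lowered 1 in OE. Of 13 genes known as Myc targets, none rose and 3 fell in OE, and cytokines raised none and lowered 3 there, shares close to the 25.7% and 21% of all genes called in these comparisons. In ZIP 1 rose and 1 fell without cytokines. Odc1, the polyamine enzyme, rose with cytokines in Scr (log2 1.37, 144 to 373 CPM) and ZIP (1.22), and Ldha was lower in OE (87.9 CPM) than in Scr (631 CPM). The median of the 13 was 0.17 in OE against Scr and -0.04 for cytokines in OE. By the interaction test, 5 of the 13 had a lower log2 cytokine response in OE than in Scr and none a higher one, beside 20% of all genes called. Among the 5 were Odc1 (-0.97, SE 0.175, adjusted p = 0.000382) and Ldha (-2.10, SE 0.713, adjusted p = 0.0388). The part of Myc, whose own response was higher in OE, was not tested.

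Of 12 genes known as AP-1 targets, 10 were in the table. In ZIP 3 rose and 1 fell, and in OE 5 rose and 1 fell. Cytokines raised 4 in Scr, 5 in ZIP and 5 in OE (medians 0.79, 1.18 and 1.37), and lowered none, 1 and 1. Cd44, a hyaluronan receptor, rose from 3.18 to 15.4 CPM in Scr, from 13.1 to 61.6 CPM in ZIP and from 4.75 to 76.1 CPM in OE, a response larger in OE than in Scr by 1.73 (SE 0.244). Plau, the urokinase, was at 0.039 CPM in Scr+Cy and 10.3 CPM in OE+Cy, and Spp1, osteopontin, at 0.441 CPM in Scr and 91.2 CPM in OE. Vegfa fell with cytokines in ZIP and OE by 0.61 and 0.59.

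Of 6 C/EBP target genes, 5 were in the table. None was called in ZIP, and 1 rose and 1 fell in OE. Cytokines raised 3 in Scr, 3 in ZIP and 4 in OE, among them the acute-phase genes Lcn2 (0.263 to 39.2 CPM in Scr, 0.437 to 37.0 in ZIP, 0.0438 to 82.6 in OE) and Saa3 (0.239 to 32.5 in Scr, 0.202 to 15.6 in ZIP, 0.0534 to 32.0 in OE). In ZIP+Cy, Saa3 was lower than in Scr+Cy by 1.06 on the log2 scale (SE 0.338), with overlapping libraries, and complement C3 by 1.89 (SE 0.339). Lcn2 differed there by -0.09 (SE 0.415) and was not called. In OE+Cy, C3 was lower than in Scr+Cy by 1.68 (SE 0.335), and Lcn2 was higher by 1.08 (SE 0.412), with overlapping libraries. Cebpd was 2.84-fold below Scr+Cy in ZIP+Cy and stood -0.10 from it in OE+Cy. Its part in these differences was not tested.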

How the data were processed

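mRNA-seq libraries of MIN6 cells, 24 in 6 groups of 4, were grouped and numbered by their labels. The values used are the estimated counts that the authors deposited for each gene, unnormalized and in 30.3% of cases not whole. A normalized table was not used here. The submitters' processing notes name FastQC, STAR 2.7.8a, Partek 11.0.24.0204, DESeq2 and the build mm10. The study's methods name RefSeq transcripts and other versions of these tools. Use of strand is not given in the sources used here.

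Estimated counts were rounded, and all 17696 genes were fitted together in edgeR 4.0.16 (R 4.3.3) with TMM scaling, 6 group means, glmQLFit and glmQLFTest. Calls needed an unadjusted p under 0.05 with a change of 1.5-fold or more, as in the study, or for interactions a Benjamini-Hochberg p under 0.05. Adjusted p values cover all genes by the Benjamini-Hochberg method. SEs were derived from each log2 fold change and the root of its F statistic. Levels are CPM after TMM scaling. The code was tested on simulated counts. The 10 genes, the gene lists and the tests were chosen with earlier results of these data known. From each list, up to 3 rising and 3 falling called genes with a mean of at least 1 CPM could be named, and for each of the 10 genes the 2 most alike in log2 CPM (prior count 2). Batf2's interaction and Cebpa were named outside this rule after their values were seen, and 1 listed gene that the rule names is not reported here. Per-length levels used the gene span in the file for genes of 1 exon and the GENCODE M21 transcript otherwise.

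Alternatives were DESeq2 1.42.0, the filterByExpr filter, DESeq2's size factors in edgeR, fitting the compared groups alone, adjusted p values with the fold limit, the replicate number as a block, and each library left out. Whether numbers pair libraries was checked by correlating deviations from group means over 12670 genes. Every correlation was over 0.1 in 5 of 9 comparisons, which were taken as paired by the number in the labels. They were ZIP against Scr (0.141 to 0.634), ZIP+Cy against Scr+Cy (0.191 to 0.370), and cytokines in Scr (0.413 to 0.626), ZIP (0.261 to 0.397) and OE (0.162 to 0.455). The main fit had no term for the number, so the SEs and p values given above ignore this pairing. It entered only in the alternative with the replicate number as a block.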

Additional observations from a re-analysis of the deposited data

Results flagged for a closer look

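In groups of 4, a library was set apart when its gap to the nearest other library exceeded 0.829 of the group's range. This held for 12 of the 60 sets of 4 libraries. Chance gives about 1 in 20 for independent sets of normally distributed values. These sets are in CPM and share replicate numbers, so the 12 cannot be judged against that rate. The 4 sets of Fosl1 among the 12 hold counts near 0, to which it does not apply either. For Fos they were replicate 4 of Scr (10.8 CPM), ZIP (11.0 CPM) and OE (38.1 CPM), each the highest of its group. For Egr1 they were ZIP replicate 1 (13.4 CPM) and OE replicate 4 (133 CPM). OE replicate 4 was thus set apart for both Fos and Egr1, but not for Myc. Jun in OE+Cy replicate 4 (194 CPM), Fosl2 in ZIP replicate 1 (73.8 CPM) and Cebpb in OE replicate 2 (10.8 CPM) were high as well. For Fosl1, whose counts are near 0, 1 or 2 reads can set a library apart, and the libraries were Scr replicate 4 (0.0619 CPM), ZIP replicate 3 (0.031 CPM), ZIP+Cy replicate 1 (0.0349 CPM) and Scr+Cy replicate 3 (0 CPM).

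Cytokine responses differed between lines, by the interaction test, for Cebpd in ZIP (2.07 above Scr on the log2 scale) and in OE for Cebpd (2.39), Cebpb (1.32), Jun (1.10), Myc (0.99) and Jund (0.61). For Cebpd and Cebpb, untreated OE cells were below Scr, so that the larger responses started from lower levels. The same held for Cebpd in ZIP. In OE, Jun and Jund started from levels that overlapped those of Scr, and Myc from a level 1.70-fold above Scr.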

How the results depend on the processing

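The log2 differences of the 10 genes in 11 comparisons (110 values) were taken again under each alternative that applied, which gave 1669 values in all. Of these, 1643 kept their side of the threshold, in 15 a call was lost and in 11 a call was gained. No called value changed sign, and 61 of the 1643 were uncalled values that did. With each library left out, the number of the 10 called ranged from 2 to 3 for ZIP against Scr (3 with all libraries), 6 to 7 for OE (6), 4 to 5 for cytokines in ZIP (4) and 6 to 7 in OE (7), 2 to 3 for ZIP+Cy against Scr+Cy (2), 3 to 4 for ZIP+Cy against Scr (4), 9 to 10 for OE+Cy against Scr (10) and 4 to 5 for the OE interaction (5). It stayed at 3 for cytokines in Scr and 7 for OE+Cy against Scr+Cy. For the ZIP interaction it ranged from 0 to 1, being 0 without ZIP replicate 2. Cebpd in ZIP+Cy against untreated Scr sat on the fold limit (-0.585) and lost its call under 7 alternatives, with values of -0.58 to -0.49. The filter on low counts removed Fosl1. With replicate numbers as a block, the number of the 10 called was unchanged in every comparison, 3 for ZIP against Scr and 7 for cytokines in OE for example, so the pairing changed no such call. The block took the genes called over the whole table in the ZIP interaction from 10 to 45, and DESeq2 to 41. In the other 4 comparisons of 2 groups at least 1 correlation was under 0.1 (lowest -0.129, OE against Scr), and these were not taken as paired, although a prefix in the labels, whose meaning they do not state, goes with the number in all 6 groups. DESeq2's size factors moved the median of all genes by at most 0.026. Depth limits Fosl1, with at most 31 reads over 4 libraries.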
